A study of Mus musculus with 16 samples.

Results

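Brown adipose tissue of mice holds, beside its fat cells, vessel wall cells and progenitors that can turn into new fat cells. Among the cells that the authors named in this tissue, 1 cluster carries a compound name, VSM-AP_6, which places it between vascular smooth muscle (VSM) and the cells named AP, a label that the files do not spell out. Its members were taken by that name alone: 1175 of the 24352 named cells (4.83%), or 1.07% of all 109723 cells in the deposited annotations. The 28 named clusters include 10 VSM clusters with 12372 cells, 4 AP clusters with 2514 cells and 2 Adipo clusters with 963 cells.

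The cells come from the stromal vascular fraction of interscapular brown fat of C57BL6J mice, that is, the cells that sediment after collagenase and dispase digestion. The floating adipocyte layer, red cells and dead cells were removed before droplet capture on the Chromium platform. Mice were kept for 1 week in thermoneutral housing at 30 °C or at room temperature (22 °C), or at 5 °C for 2 or for 7 days, with 4 libraries for each housing. All groups are of the same strain, and the labels give no transgene, lineage tracer or drug for any of them, so descent from one cell type to another is not measured here. The labels do not state whether a library is 1 animal or a pool, nor whether libraries come from separate animals, so p-values measure the spread between these libraries only. Replicate 1 of 2-day cold holds no named cell, which leaves 3 libraries for that group and 15 in all.

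Vascular smooth muscle cells wrap arteries and arterioles and set their tone through contractile proteins such as smooth muscle actin (Acta2) and smooth muscle myosin heavy chain (Myh11). Adipocyte progenitors are stromal or mural cells of the vessel wall that can commit to fat, and in brown fat cold exposure recruits new thermogenic adipocytes, which are rich in mitochondria. Trpv1, an ion channel best known from sensory neurons, is the gene by which the series title marks smooth muscle-derived progenitors. Gene values were not analysed here, so neither Trpv1, Acta2 and Myh11 nor markers of any other cell type could be set against the name VSM-AP, and the cluster is called by its label throughout. The measures available for each cell are its UMIs (molecules counted once each), detected genes, the share of UMIs from mitochondrial genes, a cell cycle call, and its cluster at several resolutions.

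VSM-AP_6 was a cluster of small libraries with a large mitochondrial share. Its cells had a median of 2928 UMIs, the 3rd lowest of the 28 named clusters, and a median of 1067 detected genes, the 2nd lowest. The median mitochondrial share was 25.2%, with quartiles of 17.2% and 38.2% and a range of 4.74% to 97.7%, and only Adipo_16, at 38.6%, was higher. VSM cells had a median of 7.79% and AP cells 1.99%. These ranks describe clusters that were built on the same cells, and no test was made of them.

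The mitochondrial share of a cell moves with both its mitochondrial molecules and all others, so the counts were separated. A VSM-AP_6 cell had a median of 763 mitochondrial UMIs, beside 668 in VSM, 118 in AP and 10144 in Adipo cells. Its median of non-mitochondrial UMIs was 2063, the lowest of the 28 clusters, beside 7896 in VSM, 5318 in AP and 20394 in Adipo cells. The number of mitochondrial molecules was thus near that of smooth muscle and far below that of the cells named as adipocytes, while the other molecules were fewer than in any other named cluster. The same order held library by library: the VSM-AP_6 median lay above VSM in mitochondrial UMIs in 15 of 15 libraries, and below both VSM and AP in non-mitochondrial UMIs in 15 of 15. The clusters nearest in UMIs and mitochondrial share together were EC_23 (2572.5 UMIs, 9.37%), VSM_22 (7597 UMIs, 10.5%) and VSM_27 (6272 UMIs, 8.52%). None of the 3 reached the mitochondrial share of VSM-AP_6.

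**Figure D1:**
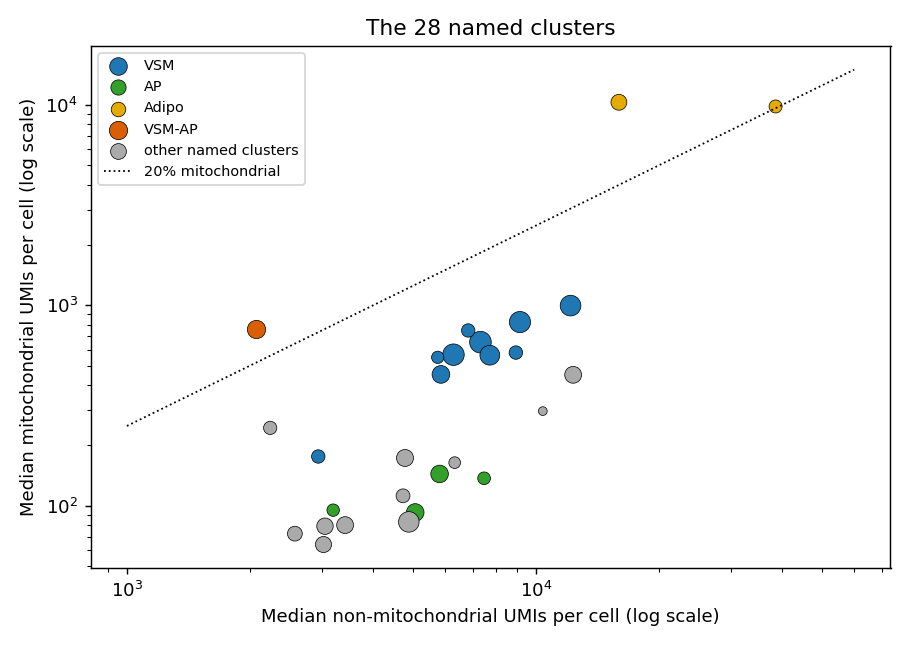
Median mitochondrial against median non-mitochondrial UMIs per cell for each of the 28 named clusters, on log scales. Symbol area grows with the number of cells, and the dotted line marks 20% mitochondrial UMIs; VSM-AP_6 lies above the line with the fewest non-mitochondrial UMIs, 2063.

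The cluster was not uniform, and a boundary at 20% mitochondrial UMIs divides it into 394 cells below and 781 cells (66.5%) at or above. There was no gap at the boundary, with 34 cells between 19% and 20% and 38 between 20% and 21%. Cells below it had a median of 4417 UMIs, 1753 genes and 3777.5 non-mitochondrial UMIs. Cells at or above it had 2504 UMIs, 855 genes and 1609 non-mitochondrial UMIs. Mitochondrial UMIs went the other way, with medians of 613 and 860. Within libraries, cells at or above 20% had the fewer non-mitochondrial UMIs in 12 of 15 libraries, the fewer genes in 13 and the more mitochondrial UMIs in 14. Because the boundary is set on the ratio of these counts, the contrast is a description of what it separates.

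Outside VSM-AP_6 and Adipo, so large a mitochondrial share was uncommon among named cells. At 20% or more lay 0.331% of VSM cells, 0.955% of AP cells and 1.41% of EC cells, but 84.7% of Adipo cells. Within EC, the cluster EC_23 had 9.63%. Of the 1709 named cells at 20% or more, 45.7% were VSM-AP_6 and 47.7% Adipo. Over all 109723 cells, 7422 reached 20%, of which 23.0% carried any name and 10.5% were VSM-AP_6.

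The authors clustered the named cells at several resolutions, and the neighbours of VSM-AP_6 changed with them. In the coarsest clustering (resolution 0.1), 922 VSM-AP_6 cells (78.5%) shared a cluster with the 963 Adipo cells and 253 (21.5%) shared one with 12213 VSM cells. None was placed with the AP cells at this resolution. The division followed the mitochondrial share: 96.5% of the cells at 20% or more were grouped with Adipo, and 57.4% of the cells below 20% were grouped with VSM. At resolution 0.6 all 1175 lay in 1 cluster of 1268 cells, where the other members included 57 VSM cells and 36 cells of AP_9. At resolution 1.2, the one used for the names, VSM-AP_6 was a single cluster.

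In the finest clustering (resolution 1.8) the cluster split again. Cluster 9 took 905 cells (77.0%) and was almost pure, since 98.2% of it was VSM-AP_6. Cluster 22 took 251 cells (21.4%), and these shared it with 193 cells of Adipo_16. All 251 had at least 20% mitochondrial UMIs, with a median of 54.1%. Although the mitochondrial share of the Adipo_16 cells in that cluster was alike, at 53.6%, the sizes were not: the VSM-AP_6 cells had a median of 2324 UMIs and the Adipo_16 cells 18074. The non-mitochondrial medians were 1000 and 7896 UMIs. The Adipo_16 cells of cluster 22 came mostly from 2-day cold (158 of 193), whereas the VSM-AP_6 cells came from every housing, with 69 from thermoneutral housing, 86 from room temperature, 58 from 2-day and 38 from 7-day cold.

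Per library, cluster 22 held 3.01%, 11.8%, 6.52% and 28.7% of the VSM-AP_6 cells of thermoneutral replicates 1 to 4. The room temperature libraries held 27.8%, 17.1%, 18% and 22.5%, the 2-day libraries (replicates 2 to 4) 25.4%, 15.2% and 39.7%, and the 7-day libraries 48.0%, 27.6%, 21.4% and 41.4%. All housings overlapped in this share, which was not tested.

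**Figure D2:**
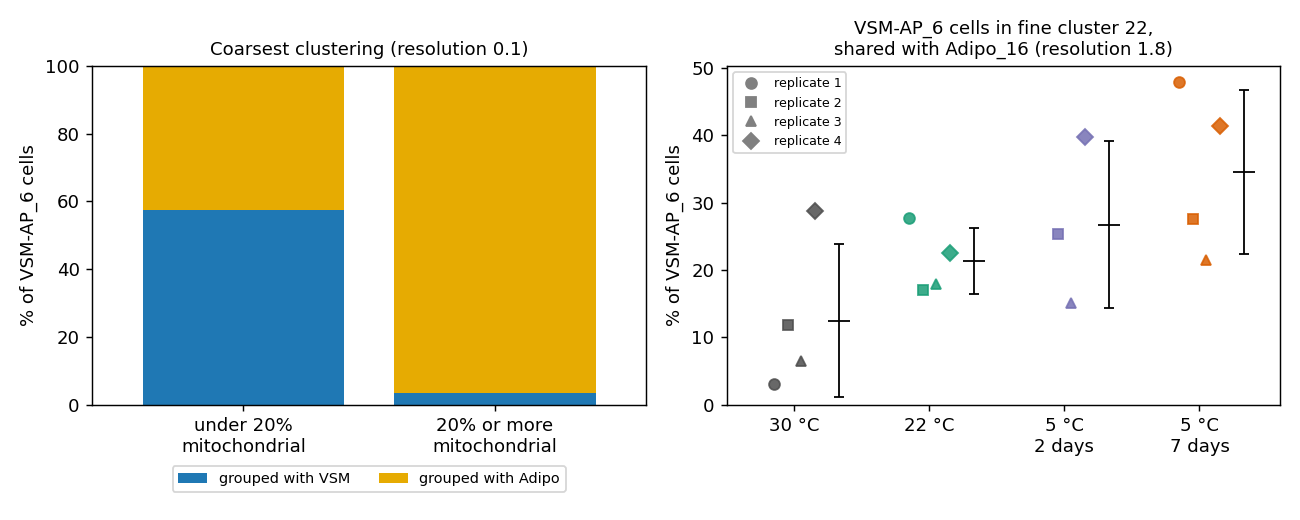
Left, the % of VSM-AP_6 cells grouped with VSM or with Adipo cells at resolution 0.1 in the clustering of named cells, below and above 20% mitochondrial UMIs. In that clustering 57.4% of the cells below 20% but few of the others were grouped with VSM. Right, the % of VSM-AP_6 cells per library in cluster 22 at resolution 1.8, with mean ± SD of the 4 (2-day cold, 3) libraries of each housing.

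A second clustering, of all 109723 cells, grouped fewer VSM-AP_6 cells with Adipo at resolution 0.1. There 652 (55.5%) shared a cluster with 943 Adipo cells and 505 (43.0%) shared one with 12168 VSM cells. Of the cells below 20%, 85.5% were grouped with VSM, and of those at 20% or more, 21.5%. At resolution 1.8 most VSM-AP_6 cells lay together. Cluster 24 held 881 of them (75%) beside 197 VSM cells. Cluster 20 held 135 (11.5%) beside 213 Adipo_16 cells, and cluster 4 held 81 (6.89%) beside 5209 VSM cells. The median mitochondrial share of the VSM-AP_6 cells was 48.3% in cluster 20 and 11.3% in cluster 4, so cells near Adipo were again those with the larger share. Of the 1762 cells of cluster 20, 1374 came from replicate 1 of 2-day cold, which holds no named cell. The AP cells' own cluster 13 held 8 VSM-AP_6 cells. No cell barcode was used by VSM-AP_6 cells of more than 1 library, and 2.98% of the VSM-AP_6 cells had a barcode used by some cell of another library, against 2.82% of all cells.

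The first question of the housing comparison is whether the cluster took a larger or smaller part of the named cells. Thermoneutral housing gave 415 of the 1175 cells, room temperature 438, 2-day cold 211 and 7-day cold 111. Libraries held 25 to 202 VSM-AP_6 cells among 357 to 3739 named cells, so counting error alone is wide in the smaller ones. As a share of named cells, VSM-AP_6 was 3.56%, 6.37%, 3.32% and 7.90% in the thermoneutral libraries (mean 5.29% ± 2.23, SD, n = 4). At room temperature it was 4.28%, 5.72%, 7.85% and 11.2% (7.27% ± 3.01, n = 4), the last in a library of 357 named cells with a 95% Wilson interval of 8.34% to 14.9%. After 2 days at 5 °C it was 2.65%, 4.30% and 3.68% (3.54% ± 0.832, n = 3). After 7 days it was 3.19%, 2.72%, 4.58% and 6.17% (4.16% ± 1.55, n = 4). Every pair of housings overlapped, room temperature and 2-day cold only between 4.28% and 4.30%.

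With limma, fitted to the log2 odds of all 27 clusters that could be tested, the share of VSM-AP_6 did not pass the threshold in any of the 6 comparisons. The log2 odds ratio was -0.32 ± 0.47 (SE) for 7-day cold against thermoneutral housing (adjusted p = 0.539), where 10 of the 27 clusters (37%) passed. It was -0.53 ± 0.50 for 2-day cold against thermoneutral housing (adjusted p = 0.424; 11.1% of clusters passed) and 0.49 ± 0.47 for room temperature against it (adjusted p = 0.671; 0% passed). The estimates farthest from 0 were those against room temperature, -1.03 ± 0.50 after 2 days (adjusted p = 0.254; 0% passed) and -0.82 ± 0.47 after 7 days (adjusted p = 0.181; 7.41% passed). Between 7 and 2 days it was 0.21 ± 0.50 (adjusted p = 0.876; 0% passed). Where no cluster passed, 1 (room temperature against thermoneutral housing), 3 (2-day cold against room temperature) and 2 (7-day against 2-day cold) of the 27 had an unadjusted limma p under 0.05, and edgeR called 0 in each.

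The cells below 20% mitochondrial UMIs behaved otherwise. They numbered 165 in thermoneutral housing, 151 at room temperature, 64 in 2-day cold and 14 in 7-day cold. Among named cells below 20%, VSM-AP_6 was 2.14%, 3.14%, 1.90% and 1.84% in the thermoneutral libraries (2.26% ± 0.605, n = 4). It was 1.17%, 2.36%, 2.40% and 6.69% at room temperature (3.15% ± 2.42, n = 4) and 1.10%, 1.31% and 1.27% after 2 days at 5 °C (1.23% ± 0.109, n = 3). After 7 days it was 0.407%, 0.393%, 0.522% and 0.973% (0.574% ± 0.273, n = 4), from 3, 4, 3 and 4 cells. All 4 of the 7-day libraries lay below every library of the other housings, but counting error reaches across: the Wilson intervals of replicates 1, 3 and 4 extend up to 1.19%, 1.52% and 2.48% and cover values of other housings. That of replicate 2 ends at 1.01%.

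VSM-AP_6 below 20% fell in 7-day cold against thermoneutral housing, by 1.90 ± 0.51 on the log2 odds scale (limma, adjusted p = 0.00936). It also fell against room temperature, by 2.14 ± 0.51 (limma, adjusted p = 0.00560). Both comparisons share the 7-day libraries. Many clusters moved in them: 11 of the 25 clusters tested (44%) passed in the first, 9 higher and 2 lower, and 6 of 25 (24%) in the second, 4 higher and 2 lower. The other lower cluster, named after its value was seen, was VSM_2 in the first and VSM_0 in the second. Both calls held with each of the 15 libraries left out and in 12 other tested settings, with adjusted p-values up to 0.0472 and 0.0415. None of these settings moved the boundary of 20%. Within replicates 1 and 2 and within replicates 3 and 4 the difference from thermoneutral housing was -2.56 and -1.24, and that from room temperature -1.90 and -2.38. The VSM cells were a smaller part of the whole in 7-day cold too. They were 4969 of 7952 named cells below 20% in thermoneutral housing, 4169 of 6665 at room temperature and 853 of 2741 in 7-day cold. Below 20% there were 1.82 ± 0.852 VSM-AP_6 cells per 100 VSM cells in 7-day cold against 4.09 ± 2.20 in thermoneutral housing. The test of this ratio, given further on, did not pass, but it could not have passed alone.

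The other 4 comparisons below 20% did not pass. The log2 odds ratio of 2-day cold was -0.86 ± 0.55 against thermoneutral housing (limma, adjusted p = 0.315) and -1.10 ± 0.55 against room temperature (adjusted p = 0.314). That of 7-day against 2-day cold was -1.04 ± 0.55 (adjusted p = 0.450), and that of room temperature against thermoneutral housing 0.24 ± 0.51 (adjusted p = 0.80). In each of these 4, 0% of clusters passed with limma; 7, 3, 3 and 2 of the 25 had an unadjusted p under 0.05 in the order given, and edgeR called 1, 0, 0 and 0. In 7-day cold the 14 remaining cells had a median of 1473.5 UMIs, against 4111 in thermoneutral housing, 4952 at room temperature and 4507.5 in 2-day cold, which was not tested with so few cells.

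**Figure D3:**
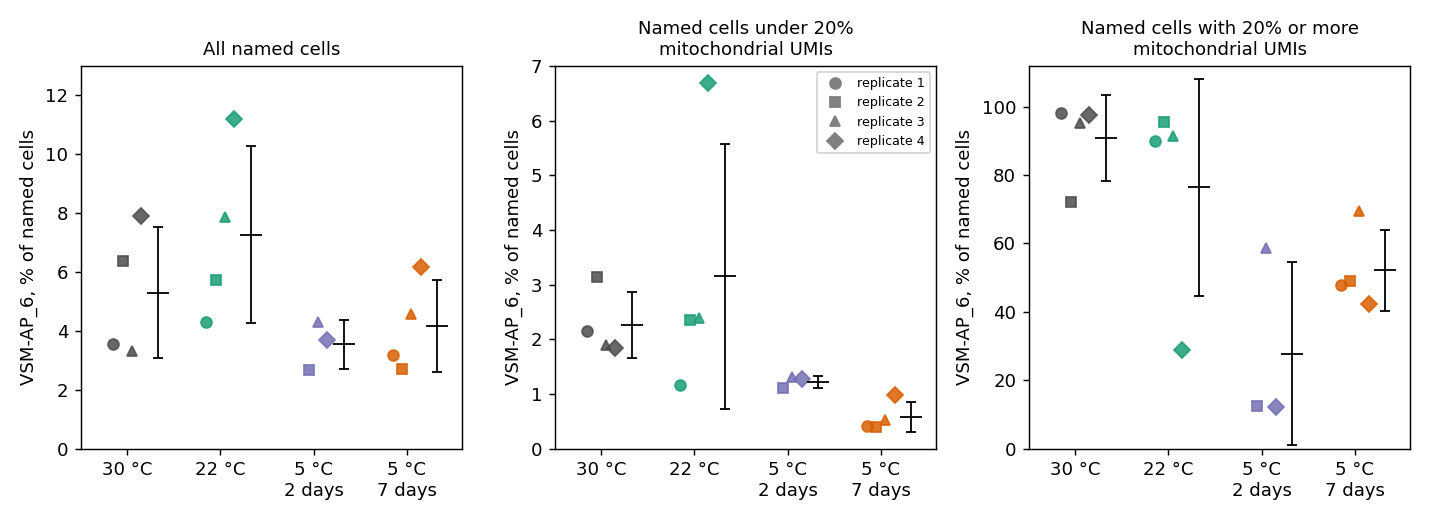
VSM-AP_6 as % of named cells in each library, for all named cells, for those below 20% and for those at 20% or more mitochondrial UMIs; symbols are replicates, and bars are mean ± SD (n = 4, 2-day cold n = 3). Below 20%, the 7-day libraries (0.393% to 0.973%) lie under all others.

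Among named cells at 20% or more, VSM-AP_6 was the most frequent name in all thermoneutral and all 7-day libraries. The same held in 3 of 4 libraries at room temperature and in replicate 3 of 2-day cold. It made up 98.2%, 72.0%, 95.2% and 97.5% of them in the thermoneutral libraries and 89.8%, 95.5%, 91.5% and 28.8% at room temperature. After 2 days at 5 °C it made up 12.4%, 58.8% and 12.2%, and after 7 days 47.8%, 49.0%, 69.4% and 42.4%. The cold libraries all lay below the thermoneutral ones, and room temperature replicate 4 lay among the cold libraries.

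These shares are parts of a whole, and the other names that fill it differed by housing. Adipo cells at 20% or more numbered at most 1 per thermoneutral library, 2, 2, 7 and 42 at room temperature, 296, 28 and 401 after 2 days at 5 °C and 10, 6, 6 and 14 after 7 days. Names other than VSM-AP_6 and Adipo made up 2.02% to 6.25% of such cells in the 2-day libraries. In the 7-day libraries they made up 30.4%, 39.2%, 13.9% and 33.9%, above the Adipo share in replicates 1, 2 and 4 (21.7%, 11.8% and 23.7%) and below it in replicate 3 (16.7%). The VSM-AP_6 cells at 20% or more themselves numbered 54, 18, 20 and 158 in the thermoneutral libraries, 53, 106, 107 and 21 at room temperature, 43, 47 and 57 after 2 days and 22, 25, 25 and 25 after 7 days.

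Only 3 clusters had enough cells at 20% or more to be tested, so here the percentage of clusters that passed says little. The p-values may also be too small. limma pools the spread over the clusters tested, and these 3 are parts of the same whole, so their values are not independent. With Adipo cells left out of the denominator, only VSM-AP_6 had enough cells to be tested. The adjusted p-values given below for that setting are therefore not adjusted over clusters, and no spread was pooled. They cannot be set against those of the 3 clusters as like values. In the thermoneutral libraries VSM-AP_6 was 54 of 55, 18 of 25, 20 of 21 and 158 of 162 such cells. Its odds there rest on few cells of other names and partly on the 0.5 cells added. The VSM-AP_6 share fell by 5.56 ± 1.35 on the log2 odds scale in 2-day cold against thermoneutral housing (limma, adjusted p = 0.000371; 100% of clusters passed). It fell by 4.06 ± 1.35 in 2-day cold against room temperature (adjusted p = 0.00771; 66.7% passed) and by 3.72 ± 1.25 in 7-day cold against thermoneutral housing (adjusted p = 0.0168; 66.7% passed). With Adipo cells left out of the denominator the first 2 became -1.60 (adjusted p = 0.215) and -0.92 (adjusted p = 0.465) and no longer passed, while the third was -3.43 (adjusted p = 0.0110). The third call ended without thermoneutral replicate 4 (-3.29, adjusted p = 0.0533) or without 7-day replicate 4 (-3.53, adjusted p = 0.0538). With edgeR and TMM scaling all 3 estimates were above 0, at 0.60, 0.024 and 0.98, and the last passed in that direction (edgeR's quasi-likelihood test, adjusted p = 0.0307). For 7-day cold against room temperature the log2 odds ratio was -2.21 ± 1.25 (adjusted p = 0.218), and -3.42 without room temperature replicate 4 (adjusted p = 0.00599). The remaining values were -1.50 ± 1.25 for room temperature against thermoneutral housing (adjusted p = 0.282) and 1.85 ± 1.35 for 7-day against 2-day cold (adjusted p = 0.273), with 0% of clusters passing in these last 3 comparisons. There limma gave 0, 0 and 1 clusters an unadjusted p under 0.05, and edgeR called 0, 2 and 0.

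**Figure D4:**
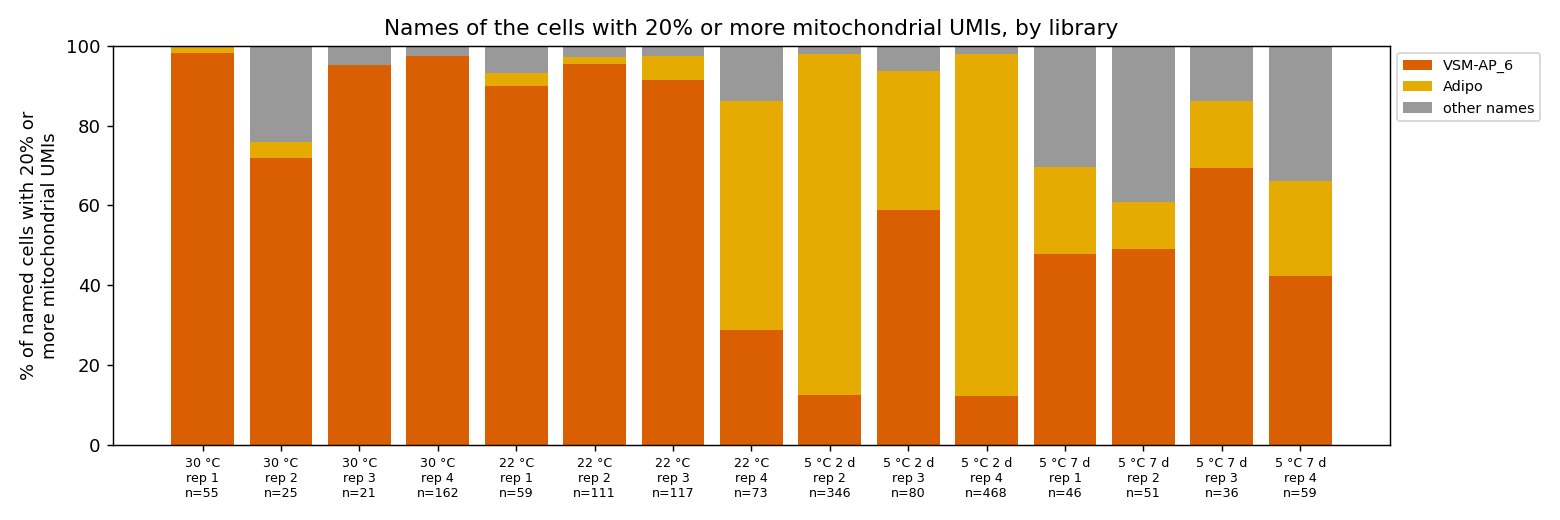
Names of the named cells with 20% or more mitochondrial UMIs, as % of such cells in each library, with their number under each bar. VSM-AP_6 makes up 72.0% or more in thermoneutral housing, and Adipo cells take most of the bar in room temperature replicate 4 and in replicates 2 and 4 of 2-day cold.

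The make-up of VSM-AP_6 itself was then compared, with the same cells and boundary as above. Cells at 20% or more were 40.6%, 52.9%, 43.5% and 78.2% of the cluster in the thermoneutral libraries (53.8% ± 17.1, n = 4) and 73.6%, 60.2%, 71.3% and 52.5% at room temperature (64.4% ± 9.86, n = 4). They were 64.2%, 71.2% and 73.1% after 2 days at 5 °C (69.5% ± 4.69, n = 3) and 88.0%, 86.2%, 89.3% and 86.2% after 7 days (87.4% ± 1.50, n = 4). The 7-day libraries lay above every other library, and the other 3 housings overlapped.

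The 7-day mean was 33.6 percentage points above thermoneutral housing, 23.0 above room temperature and 17.9 above 2-day cold. Each exact permutation p was 0.0286, the smallest that this number of libraries can give. The adjusted p over the 6 comparisons was 0.0571, so none passed the threshold. When these comparisons alone are at the smallest p, no lower adjusted p is possible, so the lack of a call says little. The differences among the other housings were 15.7 points between 2-day cold and thermoneutral housing (exact p = 0.171, adjusted p = 0.257), 10.6 between room temperature and thermoneutral housing (exact p = 0.314, adjusted p = 0.377) and 5.07 between 2-day cold and room temperature (exact p = 0.514). Without the cells of fine cluster 22, a choice made after seeing the data, the 7-day mean was 80.2% ± 4.59 (n = 4) and the thermoneutral mean 48.6% ± 14.3 (n = 4).

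Mitochondrial shares of other named cells are given beside these values. The median mitochondrial share of VSM cells was 9.26% to 10.3% in the 7-day libraries and 6.75% to 9.06% in the thermoneutral ones, with 6.74% to 10.7% at room temperature and 5.80% to 9.11% in 2-day cold. That of AP cells was 2.04% to 3.99% in the 7-day libraries and 1.93% to 2.42% in the thermoneutral ones, which overlap. The median over all named cells was lower in value in 7-day cold, at 4.85% ± 1.18 (n = 4) against 6.98% ± 1.56 (n = 4). Of the named cells outside VSM-AP_6, 1.89% to 7.71% lay at 20% or more in the 7-day libraries against 0.0277% to 1.4% in the thermoneutral ones. The part of these differences in the values of VSM-AP_6 was not tested.

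The median mitochondrial share of VSM-AP_6 cells was 18.1%, 20.9%, 19.3% and 30.6% in the thermoneutral libraries (22.2% ± 5.67, n = 4) and 29.7%, 23.1%, 24.1% and 21.5% at room temperature (24.6% ± 3.55, n = 4). It was 24%, 33.2% and 37.4% after 2 days (31.5% ± 6.88, n = 3) and 51.0%, 29.9%, 35.6% and 41.1% after 7 days (39.4% ± 8.99, n = 4). Thermoneutral replicate 4 lay just inside the 7-day range. The 7-day mean was 17.2 points above the thermoneutral one (exact permutation p = 0.0571, adjusted p = 0.343 over 12 tests) and did not pass. Mitochondrial UMIs per VSM-AP_6 cell had library medians of 764 ± 195 (n = 4) in thermoneutral housing, 932.5 ± 322 (n = 4) at room temperature, 887 ± 176 (n = 3) after 2 days and 1674.5 ± 444 (n = 4) after 7 days of cold. Non-mitochondrial UMIs had medians of 2660 ± 1037, 2813 ± 1451, 2253 ± 258 and 1733 ± 788 in the same order. These counts were not tested.

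**Figure D5:**
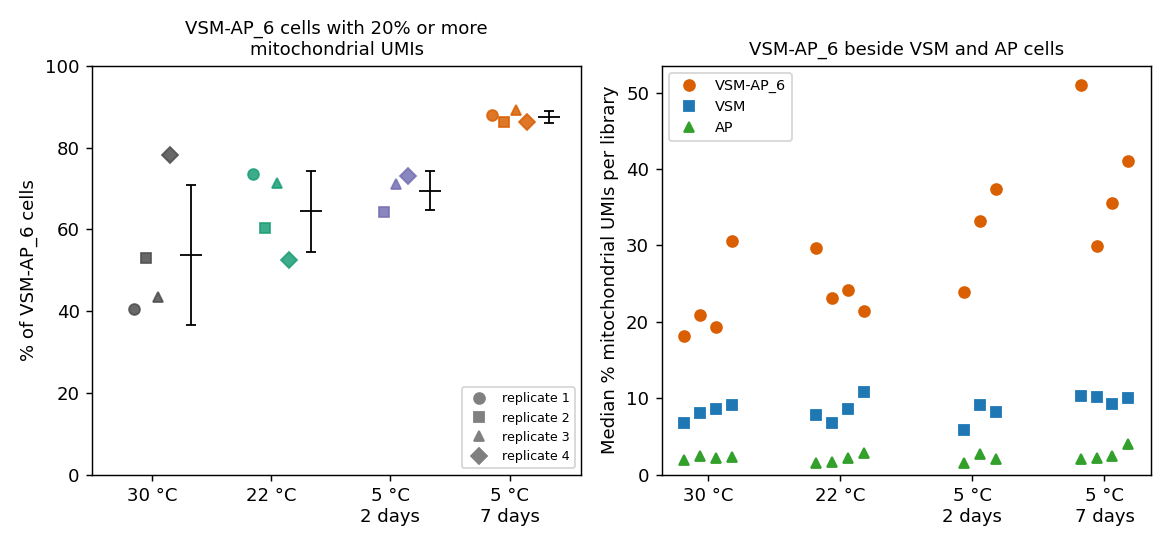
Left, the % of VSM-AP_6 cells with 20% or more mitochondrial UMIs in each library, with mean ± SD (n = 4, 2-day cold n = 3); the 7-day libraries lie between 86.2% and 89.3%, above all others. Right, the median mitochondrial share per library of VSM-AP_6, VSM and AP cells, in which VSM-AP_6 is the highest in 15 of 15 libraries.

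The name of the cluster sets it between VSM and AP, and the ratios to these neighbours do not move with the remaining names. Per 100 VSM cells there were 9.53 ± 4.76 (n = 4) VSM-AP_6 cells in thermoneutral housing, 14.7 ± 9.69 (n = 4) at room temperature, 9.15 ± 1.8 (n = 3) after 2 days and 13.9 ± 5.51 (n = 4) after 7 days at 5 °C. The log2 ratio differed from thermoneutral housing by 0.56, 0.06 and 0.62, and the last had an exact permutation p of 0.229 (adjusted p = 0.457 over 6 tests). Per 100 AP cells there were 24.3, 103, 83.6 and 342 VSM-AP_6 cells in the thermoneutral libraries. The room temperature libraries had 88.9 to 149, the 2-day libraries 18.4 to 42.9 and the 7-day libraries 13.4 to 35.9. The log2 ratio to AP was 1.90 lower in 2-day cold and 1.85 lower in 7-day cold than in thermoneutral housing, each with an exact permutation p of 0.114 (adjusted p = 0.343), and neither passed.

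With cells below 20% on both sides, the ratio to VSM differed by -0.97 in 7-day cold (exact permutation p = 0.0857, adjusted p = 0.171). That to AP differed by -3.41 (exact permutation p = 0.0286, the smallest possible, adjusted p = 0.171). The counts behind them were 1.82 ± 0.852 VSM-AP_6 cells per 100 VSM cells in 7-day cold against 4.09 ± 2.20 in thermoneutral housing, and 3.59 ± 1.55 per 100 AP cells against 46.6 ± 24.7 (n = 4 each). A single comparison at the smallest possible p has an adjusted p of 0.171 over these 6 tests, so that neither ratio could pass alone.

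The median mitochondrial share, UMIs, genes and cell cycle calls within VSM-AP_6 made up 12 comparisons with thermoneutral housing, and none passed. A single comparison at the smallest possible exact permutation p, 0.0286, has an adjusted p of 0.343 over these 12. None could therefore pass alone, and the lack of a call says little. Median UMIs per library were 3440.5 ± 1167 (n = 4) in thermoneutral housing, 3830 ± 1885 (n = 4) at room temperature, 3813 ± 608 (n = 3) after 2 days and 3688 ± 1336 (n = 4) after 7 days of cold. Median genes were 1288 ± 313, 1343 ± 546, 1062 ± 51.5 and 910 ± 325 in the same order (7-day cold: exact permutation p = 0.171, adjusted p = 0.514). The share of VSM-AP_6 cells called S or G2M, the phases of DNA synthesis and of preparation for division, was 58.2% ± 4.27 in thermoneutral housing, 56.3% ± 1.53 at room temperature and 53.3% ± 7.85 in 7-day cold. It was 38.8%, 50.0% and 44.9% in the 2-day libraries, all below the lowest thermoneutral library (52.9%), a difference of -13.7 points (exact permutation p = 0.0286, adjusted p = 0.343).

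The phase calls depend on the table they are read from. The table of named cells puts 55.3% of VSM-AP_6 in S or G2M and the table of all cells 20.8%, with equal calls for 65.1% of the cells. Over all housings 55.1% of the cells below 20% mitochondrial UMIs and 55.4% of those at or above it were called S or G2M, but the mix of housings differs between them. In thermoneutral housing the values were 57.6% and 62.0%, at room temperature 55.0% and 57.1%, in 2-day cold 45.3% and 44.2%, and in 7-day cold 71.4% (of 14 cells) and 50.5%. No rate of division is read from them, and the part of free RNA or depth in the calls was not tested.

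Replicate 1 of 2-day cold could be reached only through the clustering of all cells, where cluster 24 is the nearest to VSM-AP_6. That cluster held 1319 cells, of which 1100 were named, 881 as VSM-AP_6, and 219 were unnamed. Of all cells in a library it took 1.41%, 1.75%, 0.870% and 2.95% in thermoneutral housing and 2.08%, 2.29%, 1.58% and 1.93% at room temperature. After 2 days it took 0.760%, 0.732%, 1.02% and 0.940%, the first being replicate 1, and after 7 days 0.476%, 0.861%, 0.432% and 1.56%. Replicate 1 thus lay within the range of the other 2-day libraries in this share, although 54.2% of its cells, of any kind, had 20% or more mitochondrial UMIs. Its 76 cells of cluster 24 had a median of 9723.5 UMIs and 29.2% mitochondrial UMIs, against 3274 UMIs and 20.1% over the whole cluster. In cluster 20 of all cells, which held 135 VSM-AP_6 cells, replicate 1 was unlike the others. That cluster took 13.7% of replicate 1, but 1.10%, 0.0308% and 0.880% of replicates 2 to 4. Cluster 24 was also fitted in place of VSM-AP_6 with all 16 libraries, a choice made after seeing the data. Its cells below 20% fell in 7-day cold, by 2.15 on the log2 odds scale against thermoneutral housing (limma, adjusted p = 0.0296) and by 2.04 against room temperature (adjusted p = 0.0415). This is no independent check, since 296 of the 394 VSM-AP_6 cells below 20% lie in cluster 24. Below 20% that cluster held 252 cells in thermoneutral housing, 176 at room temperature, 189 in 2-day and 35 in 7-day cold, which include other named and unnamed cells.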

How the data were processed

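Droplet RNA libraries of 16 stromal vascular samples were made from brown fat. STAR, Cell Ranger 3.0.1 and the mouse build mm10 are named in the submitters' processing notes. The sources used here do not give the filters on cells, the integration or the clustering settings. UMI and gene counts of each cell were deposited by the authors whole, without normalization. They are used beside the mitochondrial fraction, deposited by the authors from 0 to 1 and printed as percent. The authors also deposited phase scores and a log10 ratio of genes to UMIs, neither of which entered a comparison; the phase call did. Cluster numbers and names stand as deposited, and no cell was filtered out. Gene values were not analysed here, so names could not be set against markers, no doublet caller was run and no cell was thinned.

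The library was the replicate, and the labels gave the housing groups. Each named cluster's share per library was turned into log2 odds after adding 0.5 cells on both sides. limma 3.58.1 (R 4.3.3) fitted the 4 housings together, using every cluster that averaged 10 or more cells a library. P-values were two-sided, with Benjamini-Hochberg adjustment inside each of 6 contrasts and a threshold of 0.05. Single values per library were compared with two-sided exact permutation tests. A log2 ratio had 0.5 cells added to both counts. Alternatives included edgeR 4.0.16 on the cell counts, other scales and denominators, other boundaries of the mitochondrial share, and each library left out. Both kinds of test were tested on simulated data. Libraries held 1473 to 10005 cells, and Wilson intervals (95%) cover counting error only.

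Clusters named were VSM-AP_6, the VSM and AP classes, the 3 nearest in UMIs and mitochondrial share, and clusters of all cells with at least 5% of VSM-AP_6; Adipo was added where it shares clusters with VSM-AP_6. The cluster, the boundary and the lists were chosen with earlier results of these data known.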

Additional observations from a re-analysis of the deposited data

Results flagged for a closer look

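In 2 of 30 groups of 4 libraries, 1 library lay far from the others by Dixon's criterion at the 95% level, which chance meets in about 1 of 20 groups. Both concern VSM-AP_6 as a share of named cells at 20% or more mitochondrial UMIs. In thermoneutral housing replicate 2 held 72.0%, from 25 such cells, where the other libraries held 95.2% to 98.2%. At room temperature replicate 4 held 28.8%, from 73 such cells, where the others held 89.8% to 95.5%; 42 of the 73 were Adipo cells, and this library had the fewest named cells, 357.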

How the results depend on the processing

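Of 369 settings other than leaving out a library, over 42 results, 322 were counted as unchanged, and so were 616 of 630 fits without 1 library. For settings with a test this means the same direction and side of the threshold. The settings within pairs of replicates had no test. They were counted as unchanged where the value lay within 1 SD of the main value, and for results that had not passed their direction was not checked. Both falls below 20% in 7-day cold kept their call in all tested settings, none of which moved the boundary of 20%. In what follows values are log2 odds ratios unless a unit is given. The share of named cells in 7-day against 2-day cold was -0.14 as a share of all cells and -0.22 with cluster 24 of all cells (-0.013 to 0.40 without 1 library). Below 20%, room temperature against thermoneutral housing was -0.15 as a centred log ratio, -0.14 with edgeR and TMM, -0.11 with cluster 24, -0.66 within replicates 1 and 2 and 1.14 within replicates 3 and 4 (-0.24 to 0.63 without 1 library).

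At 20% or more, the centred log ratio gave 0.24 for room temperature, -0.49 for 2-day and -1.29 for 7-day cold against thermoneutral housing, -0.73 for 2-day cold against room temperature and -0.81 for 7-day against 2-day cold. With edgeR and TMM these comparisons with thermoneutral housing were 0.58, 0.60 and 0.98 (adjusted p = 0.0307 for the last), and those with room temperature 0.024 for 2-day and 0.40 for 7-day cold. With edgeR on library totals 7-day cold against thermoneutral housing was -0.80 and 2-day cold against room temperature -1.50. A boundary of 30% gave -2.10 for the former, and cluster 24 gave -1.76; cluster 24 gave 2.71 for 7-day against 2-day cold (adjusted p = 0.0412). Without Adipo cells in the denominator the values were -1.60 (2-day, thermoneutral), -0.92 (2-day, room temperature), -2.75 (7-day, room temperature, adjusted p = 0.0323) and -1.83 (7-day, 2-day). With Adipo cells left out only VSM-AP_6 was tested, so that p-value is not adjusted over clusters and no spread was pooled. Within replicates 1 and 2 and within 3 and 4, room temperature against thermoneutral housing was 0.42 and -3.42, and 2-day cold against room temperature -6.46 and -2.20. Without 1 library, 7-day cold ranged from -4.56 to -3.27 against thermoneutral housing and from -3.42 to -1.57 against room temperature.

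With a boundary of 10%, the percentage of VSM-AP_6 above it in 2-day cold differed by -2.32 points from thermoneutral housing and -3.28 from room temperature; that at 20% differed by 22.9 between 7-day and 2-day cold within replicates 1 and 2. The log2 ratio to VSM at room temperature was -0.28 and 1.4 within the pairs of replicates, and with cells below 20% alone -0.43 in 2-day and -0.97 in 7-day cold; that to AP was -0.055 at room temperature. Without 1 library the ratio to VSM in 2-day cold ran from -0.22 to 0.34 and that to AP at room temperature from -0.39 to 0.88. Median UMIs differed by -669 in 2-day cold without fine cluster 22 and by -1021 in 7-day cold below 20%; without 1 library the difference ran from -477 to 976 at room temperature and from -338 to 811 in 7-day cold, and that in genes from -202 to 222 at room temperature. Below 20%, genes differed by 124 in 2-day cold, the median mitochondrial share by -0.518, -1.70 and -1.12 points at room temperature, 2 and 7 days, and S or G2M by 13.8 points in 7-day cold, where it was 3.89 and -13.7 within the pairs of replicates. The cause of these shifts was not tested, beyond what each setting removes.

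The labels number replicates alike in each housing, and nothing in them says that a number marks a shared animal or day. Deviations of same-numbered libraries correlated from -0.302 to 0.655, with a median of 0.220 against -0.036 in the other 63 pairs; only 12 of 21 were above 0.1, so the numbers were not taken as pairing. With a replicate block the fall below 20% was -1.90 (adjusted p = 0.00647) against thermoneutral housing and -2.14 (adjusted p = 0.00505) against room temperature, and no call of VSM-AP_6 changed. The alternatives with cells of high UMI count only, and with a boundary of 10% for shares below it, gave no value, since VSM-AP_6 then had a mean under 10 cells per library. A minimum of 20 VSM-AP_6 cells per library removed none. With 3 or 4 cells per 7-day library below 20%, and no gene values, depth limits what can be said of those cells.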
